A study of Sus scrofa with 36 samples.

Results

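The collagen, laminin, fibrillin, fibulin, lysyl oxidase and integrin genes of the extracellular matrix were examined by RNA-Seq in subcutaneous adipose tissue of 36 pigs. The genes were chosen by symbol: all symbols that begin with COL, LAMA, LAMB, LAMC, ITGA, ITGB, FBN or FBLN followed by the chain name, and LOX with its LOXL relatives. The name table held 89 such pig genes that could be described, of which 56 were matched by gene ID to the 12253 genes of the deposited table (8320 had a symbol), and the other 33, among them COL1A1, COL4A1, COL18A1, LAMA5, ITGB5 and LOXL2, were not analysed here. The 56 genes were divided into 18 collagens, 7 laminin chains, 5 fibrillins and fibulins, 4 lysyl oxidases, 14 integrin chains that bind matrix proteins, and 6 integrin chains of leukocytes (ITGA4, ITGAE, ITGAL, ITGAM, ITGB2 and ITGB7), which were kept apart from the matrix genes. The remaining 2 symbols, ITGB1BP1 and ITGBL1, encode an integrin-binding protein and an integrin-like protein that is no receptor chain.

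The pigs were the second generation of an intercross of Göttingen minipig boars with Duroc sows. They were grouped by the Obesity Index, a predicted genetic value that combines obesity traits. The group labelled Low held 12 lean pigs (7 males and 5 females), the group labelled Mean 12 intermediate pigs (6 and 6) and the group labelled High 12 obese pigs (6 and 6). Each pig gave 1 library and pigs are numbered within their group. The labels name no treatment, and no ages per pig. By the study's account the pigs were slaughtered at a similar body weight, so the lean pigs were older than the others, and age and group cannot be told apart in these data. Pigs of a group could be full sibs, and which ones was not known here, so the p-values treat pigs as independent.

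The extracellular matrix of fat tissue surrounds adipocytes with a basement membrane, built of type IV collagen networks and of laminins that each join an alpha, a beta and a gamma chain, and holds them in a looser fibrous matrix of fibrillar collagens, type VI collagen and elastic microfibrils of fibrillin. Lysyl oxidases cross-link collagen and elastin, and fibulins tie matrix components together. Integrins are cell surface receptors of an alpha and a beta chain that bind these proteins, while the leukocyte integrins mostly bind ligands on other cells and mark the blood-derived cells of the tissue. As fat stores grow the matrix is remodelled and macrophages accumulate.

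Recovered reads ranged from 8735839 to 11755925 per pig, with a median of 10496910. Values are given as normalized counts, which are reads divided by the pig's size factor, and differences as log2 differences of the deposited values between groups, from limma with group and sex as terms. The adipocyte genes PLIN1, LIPE, CIDEC and PPARG were high in all groups, with summed normalized counts from 23031 to 72225 per pig, and no symbol of the skeletal muscle or Schwann cell lists was matched, so their levels were not analysed here. The 56 genes together took between 1.5% and 4.24% of a pig's reads, with a median of 2.66%. COL1A2, a chain of type I collagen, alone took 0.165% to 1.36%. The median SD of the 56 genes over the 36 pigs was 0.58 on the log2 scale, against 0.34 for all genes, and it ranged from 0.17 for ITGB1 to 1.23 for LAMC3.

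The first comparison asked how the matrix and integrin genes differed between obese and lean pigs. By limma with Benjamini-Hochberg (BH) adjustment over all genes, 0 of the 56 genes passed 0.05, and 5 of 12253 genes did (0.0408%). At an unadjusted p under 0.05 there were 17 of 56 genes, 11 with a higher value in obese pigs and 6 with a lower one, while 14.7% of all genes reached that level, 6.81% higher and 7.88% lower. The median log2 difference was 0.13 for the 56 genes and -0.01 for all genes. The smallest adjusted p of the family was 0.074, for LAMA3 and ITGB2. In no gene of the 56 did the obese pigs lie wholly outside the range of the lean pigs. In normalized counts, every obese pig lay above the lean median in 6 genes, against 2.37% of all genes, and below it in 1 gene, against 1.95%. By sign alone, 5 of 5 fibrillar collagens and 5 of 6 leukocyte integrins had higher values in obese pigs, against 47.5% of all genes. The 5 include COL1A2, at 0.03 ± 0.25. Lower values were found for 5 of 7 laminins, and for 6435 of all 12253 genes. Leaving out 1 lean pig changed the count of genes past the adjusted threshold, as given with the leukocyte integrins.

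**Figure D1:**
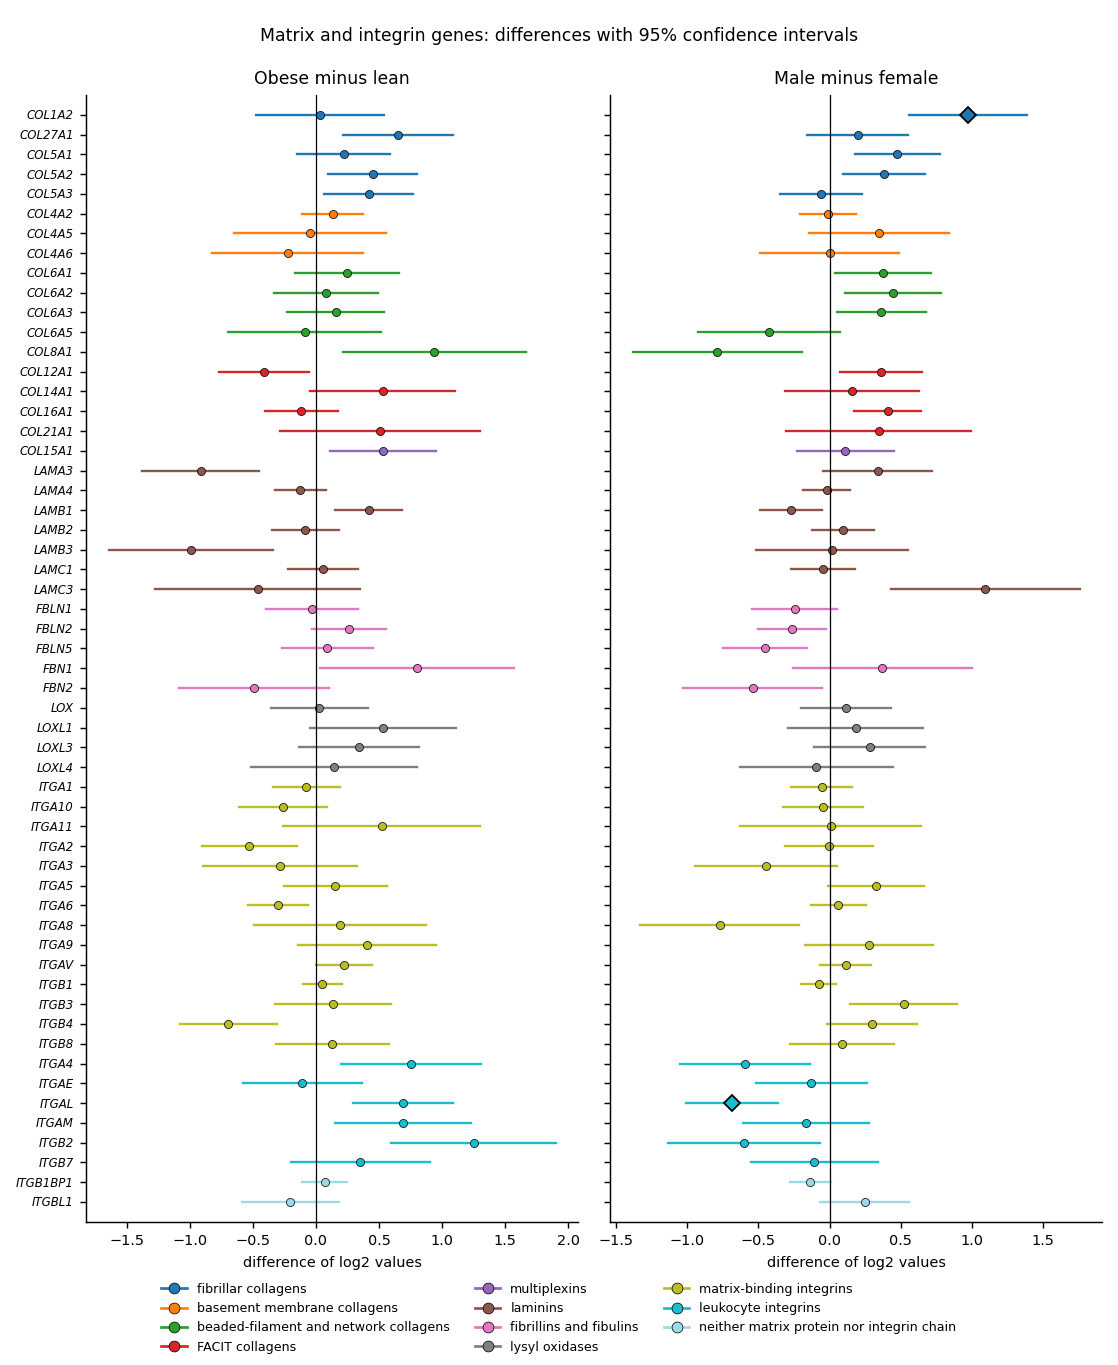
Log2 differences of the 56 genes, obese minus lean on the left and male minus female on the right, as points with bars for the 95% confidence interval of limma, coloured by class. Diamonds mark genes with an adjusted p under 0.05, which are COL1A2 and ITGAL between the sexes and no gene between obese and lean pigs.

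The leukocyte integrins had the largest differences of any class, with a median log2 difference of 0.69 between obese and lean pigs. ITGB2 encodes the beta chain shared by the integrins of neutrophils, macrophages and lymphocytes. Its normalized counts ranged from 176 to 1276 with a median of 353 in lean pigs, from 228 to 1658 with a median of 845 in intermediate pigs and from 503 to 1521 with a median of 1138 in obese pigs. Each of the 12 obese pigs exceeded the lean median, and 3 lean pigs, numbers 2, 8 and 12, lay within the obese range at 1276, 1163 and 605. The log2 difference was 1.25 ± 0.32 (SE), or 2.38-fold (95% confidence interval of the log2 difference 0.60 to 1.90), and its adjusted p of 0.074 missed the threshold.

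Its alpha partners ITGAM and ITGAL, and ITGA4, which pairs with other beta chains, had values in the same direction. ITGAM, the alpha chain of the complement receptor of macrophages and neutrophils, ranged from 72.1 to 659.6 with a median of 112 in lean pigs, from 74.2 to 239 with a median of 195 in intermediate pigs and from 134 to 417 with a median of 207 in obese pigs. The highest of all 36 values, 659.6, belonged to lean pig 2, and each obese pig exceeded the lean median. The log2 difference of ITGAM was 0.69 ± 0.27 (adjusted p = 0.2). ITGAL, the alpha chain of the lymphocyte integrin that binds ICAMs, ranged from 139.6 to 434 with a median of 282 in lean pigs, from 244 to 571 with a median of 351 in intermediate pigs and from 179 to 1349.5 with a median of 429.9 in obese pigs, a log2 difference of 0.69 ± 0.19 with an adjusted p of 0.09. Here the spread was widest in the obese group, where 2 of 12 pigs lay below the lean median, and obese minus lean it was 0.29 in males and 1.15 in females. ITGA4, the alpha chain of the integrin that lets lymphocytes and monocytes bind VCAM1, ranged from 55.9 to 305 with a median of 94.4 in lean pigs, from 47.7 to 476 with a median of 154 in intermediate pigs and from 114 to 410.4 with a median of 189 in obese pigs. Each of the 12 obese pigs exceeded the lean median, and the log2 difference was 0.75 ± 0.27 (adjusted p = 0.175).

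The remaining leukocyte integrins showed smaller differences. ITGB7, which pairs with ITGA4 or ITGAE in lymphocytes that home to mucosa, had medians of 97.2, 97.9 and 114 in lean, intermediate and obese pigs and a log2 difference of 0.35 ± 0.27 between obese and lean. ITGAE, the integrin of resident T cells, had medians of 37.7, 37.4 and 37.1, all within each other's range, and a log2 difference of -0.11 ± 0.23.

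Markers of macrophages had values in the same direction as these genes. All 6 matched macrophage markers, of 10 on the list, had higher values in obese than in lean pigs, each with an unadjusted p under 0.05 and none past the adjusted threshold, with a median log2 difference of 0.81. Their summed normalized counts ranged from 1468 to 7949 with a median of 2306 in lean pigs, from 2284 to 8209 with a median of 5196 in intermediate pigs and from 3499 to 10157 with a median of 5731 in obese pigs. Lean pigs 2 and 8 had the highest sums of their group, at 7949 and 7664. The lymphocyte markers CD2, CD8A and NKG7 (3 of 11 on the list were matched) had higher values in obese pigs in 3 of 3 cases, by 0.61, 0.81 and 0.84 on the log2 scale, with none past the adjusted threshold. The part of these cells in the integrin values was not tested, and more leukocytes and more integrin RNA per cell cannot be told apart in bulk tissue; the same holds for the matrix genes and the cells that make them.

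Leaving out 1 lean pig decided whether these genes passed. Without lean pig 2, ITGB2 had a log2 difference of 1.43 (adjusted p = 0.0155), ITGAM 0.91 (0.0182), ITGAL 0.78 (0.0224) and ITGA4 0.91 (0.0435), and LAMA3 and ITGB4 passed as well, so that 6 of the 56 genes and 292 genes in all passed. Without lean pig 8, ITGB2, LAMA3, ITGB4 and LAMB1 passed, 4 of the 56 genes and 204 genes in all. Neither pig's label or depth gave a reason to leave it out, and the fit of all 36 pigs stands as the result.

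**Figure D2:**
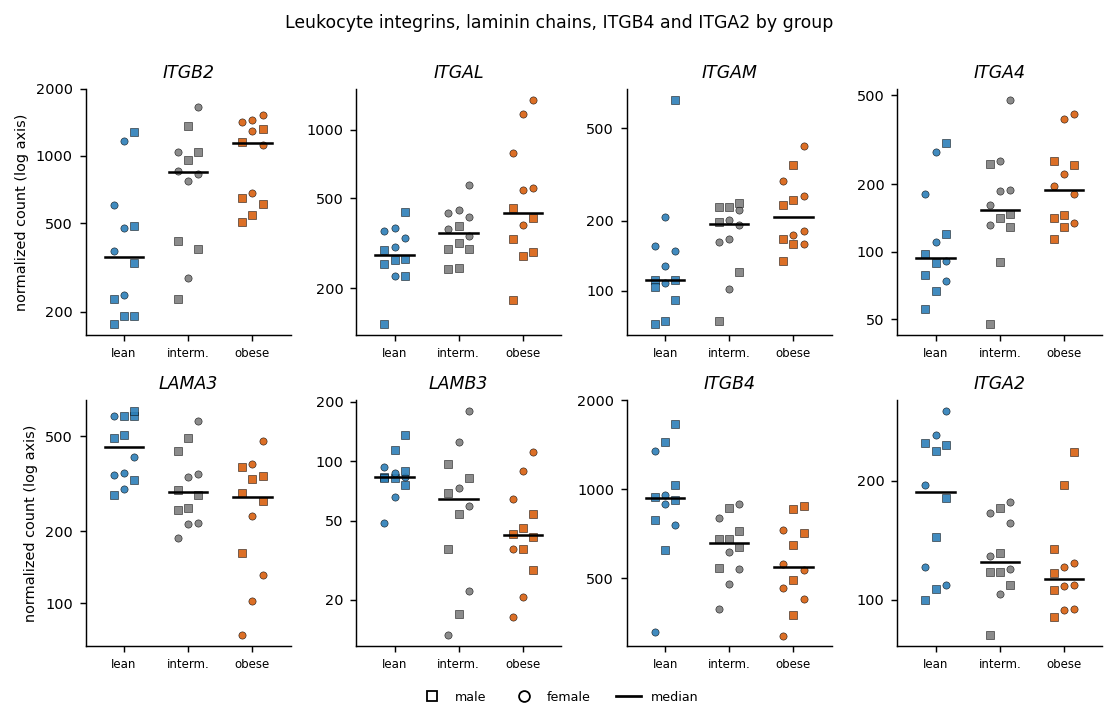
Normalized counts on a log axis for 4 leukocyte integrins (top) and for LAMA3, LAMB3, ITGB4 and ITGA2 (bottom) in lean, intermediate and obese pigs, with 1 point per pig and a line at the group median. The top genes have higher medians in obese than in lean pigs and the bottom genes lower ones, and in every panel the ranges of the groups overlap.

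The laminins divided by chain. LAMA3 and LAMB3, the alpha and beta chains of the laminin that anchors epithelia to their basement membrane, had lower values in obese pigs. LAMA3 ranged from 284 to 636 with a median of 450.1 in lean pigs, from 187 to 576 with a median of 291 in intermediate pigs and from 73.2 to 476 with a median of 278 in obese pigs, and 11 of 12 obese pigs lay below the lean median. Obese minus lean, the log2 difference was -0.91 ± 0.23, that is 1.88-fold higher in lean pigs, with an adjusted p of 0.074. LAMB3 ranged from 48.9 to 136 with a median of 83.3 in lean pigs, from 13.2 to 178 with a median of 64.1 in intermediate pigs and from 16.4 to 112 with a median of 42.2 in obese pigs, and 10 of 12 obese pigs lay below the lean median. Its log2 difference was -0.99 ± 0.32 (adjusted p = 0.129). These genes were among the less read laminins, and at counts such as 13.2 or 16.4, the lowest values of LAMB3 in intermediate and obese pigs, counting error adds to the spread.

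LAMB1, the beta chain of the common laminins of vessels and adipocytes, had values in the other direction. It ranged from 2226 to 6962 with a median of 3857 in lean pigs, from 3260.5 to 7378 with a median of 4976 in intermediate pigs and from 4261 to 7655 with a median of 5295 in obese pigs, and each of the 12 obese pigs exceeded the lean median. Obese minus lean, this was 0.42 ± 0.13 on the log2 scale (adjusted p = 0.114), and without lean pig 8, the lean pig with the highest value, it was 0.48 with an adjusted p of 0.0444. LAMA4, the alpha chain of endothelial and adipocyte laminins, and LAMC1, the gamma chain most laminins share, differed little: LAMA4 had medians of 4453, 4316 and 4313 with a log2 difference of -0.12 ± 0.10, and LAMC1 5941, 7424 and 6431 with 0.06 ± 0.14. LAMB2 and LAMC3 had log2 differences of -0.08 and -0.46, neither past an unadjusted p of 0.05.

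Among the integrins that bind matrix, 3 chains that bind laminin had lower values in obese pigs at an unadjusted p under 0.05. ITGB4, the beta chain that binds laminin in hemidesmosomes and is also made by some endothelial and Schwann cells, ranged from 329 to 1658 with a median of 932 in lean pigs, from 394 to 892 with a median of 657 in intermediate pigs and from 319 to 876 with a median of 546 in obese pigs. All 12 obese pigs lay below the lean median, and the lowest lean value belonged to pig 8. The log2 difference was -0.69 ± 0.19, or 1.62-fold higher in lean pigs, with an adjusted p of 0.0804. Its alpha partner ITGA6 ranged from 376 to 556 with a median of 471 in lean pigs, from 291 to 550.1 with a median of 414 in intermediate pigs and from 205 to 531 with a median of 393 in obese pigs, with 11 of 12 obese pigs below the lean median and a log2 difference of -0.30 ± 0.12 (adjusted p = 0.203). ITGA2, an alpha chain that binds collagen and laminin, ranged from 99.7 to 299.9 with a median of 188 in lean pigs, from 81.4 to 177 with a median of 125 in intermediate pigs and from 90.8 to 237 with a median of 113 in obese pigs. Again 10 of 12 obese pigs were below the lean median, and the log2 difference was -0.53 ± 0.19 (adjusted p = 0.156). The other 11 matrix-binding integrins had unadjusted p-values over 0.05.

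The common beta chain ITGB1 was the steadiest of these genes, with values from 4537 to 7529 in lean pigs and from 5687 to 7388 in obese pigs and a log2 difference of 0.05 ± 0.07. Its partners ITGA1, a collagen receptor chain, and ITGA5, the fibronectin receptor chain, differed by -0.07 ± 0.13 and 0.15 ± 0.20, and ITGAV, the alpha chain of the vitronectin receptors, by 0.22 ± 0.11 with medians of 1255, 1463 and 1394. The symbols that encode no integrin chain, ITGB1BP1 and ITGBL1, had log2 differences of 0.07 ± 0.09 and -0.20 ± 0.19.

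Endothelial markers had values in the same direction as these laminin receptors. All 5 matched endothelial markers, of 8 on the list, had lower values in obese than in lean pigs, 3 of them with an unadjusted p under 0.05 and none past the adjusted threshold. Their sums ranged from 9454 to 16803 with a median of 12807 in lean pigs, from 8848 to 14773.0 with a median of 10767 in intermediate pigs and from 7784 to 13021 with a median of 11114 in obese pigs. Their median log2 difference was -0.33. Of the 7 matched smooth muscle or pericyte markers, of 8 on the list, 5 had lower and 2 higher values in obese pigs. The median log2 difference of that list was -0.34, with none past the adjusted threshold. Of the skin epithelium list only KRT10 was matched (1 of 4), with sums from 78.4 to 295.5 in lean and 81.9 to 135.7 in obese pigs and a log2 difference of -0.26. The part of these cells in the values of LAMA3, LAMB3, ITGB4, ITGA6 and ITGA2 was not tested.

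The fibrillar collagens had a median log2 difference of 0.42 between obese and lean pigs, and 3 of 5 had an unadjusted p under 0.05. COL27A1, a fibrillar collagen best known from cartilage, ranged from 77.3 to 296 with a median of 186 in lean pigs, from 116 to 323 with a median of 151 in intermediate pigs and from 168 to 707 with a median of 249.5 in obese pigs. Its log2 difference was 0.65 ± 0.21 (adjusted p = 0.129), 10 of 12 obese pigs were above the lean median, and the intermediate pigs lay with the lean ones. The chains of type V collagen, which nucleates and limits the width of type I fibrils, had smaller differences. COL5A2 ranged from 6759 to 29022 with a median of 17930.3 in lean pigs, from 13744 to 28312 with a median of 20232 in intermediate pigs and from 12919.6 to 28519 with a median of 22466 in obese pigs, and the log2 difference was 0.45 ± 0.17 (adjusted p = 0.201). COL5A3 ranged from 9067 to 29091 with a median of 12619, from 10929.5 to 27869.7 with a median of 19326 and from 12327 to 27117 with a median of 19352 in the same groups, with 11 of 12 obese pigs over the lean median and a log2 difference of 0.42 ± 0.17 (adjusted p = 0.238). COL5A1 had medians of 10061, 10263 and 13126 and a log2 difference of 0.22 ± 0.18. The 4 matched fibroblast markers, of 8 on the list, summed to 4413 to 8330 in lean pigs, 4129 to 9062 in intermediate pigs and 3488 to 10128 in obese pigs, with medians of 5441, 6261 and 6911. Of these markers 2 had higher and 2 lower values in obese than in lean pigs, 1 of them with an unadjusted p under 0.05, and their part in the collagen values was not tested.

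COL1A2 itself, the most read gene of the 56, had nearly equal medians in lean and obese pigs. It ranged from 21266 to 155016 with a median of 53366 in lean pigs, from 24585 to 89311 with a median of 45214 in intermediate pigs and from 17599 to 142750.0 with a median of 52098 in obese pigs, and the log2 difference of 0.03 ± 0.25 had an interval of -0.47 to 0.54.

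Of the collagens that form other structures, COL8A1 had the largest difference. Type VIII collagen is a short-chain network collagen of vessel walls. COL8A1 ranged from 36.5 to 1161 with a median of 236 in lean pigs, from 140.0 to 783 with a median of 276 in intermediate pigs and from 264 to 844 with a median of 463 in obese pigs, so that every obese pig was above the lean median but the lean range enclosed the obese one. Its log2 difference was 0.94 ± 0.36 (adjusted p = 0.195). COL15A1, a multiplexin that links basement membranes to the fibrous matrix, ranged from 247 to 1917 with a median of 792 in the lean group, from 684 to 1579.6 with a median of 1077 in the intermediate group and from 874 to 1685 with a median of 1066 in obese pigs, and the log2 difference was 0.53 ± 0.21 (adjusted p = 0.205) and again 12 of 12 obese pigs were over the lean median.

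Type VI collagen forms beaded filaments around adipocytes. Its chains COL6A1, COL6A2 and COL6A3 had log2 differences of 0.25 ± 0.20, 0.08 ± 0.20 and 0.16 ± 0.19 between obese and lean pigs. Their medians in lean and obese pigs were 10343 and 14488 for COL6A1, 15034 and 16977 for COL6A2, and 35564 and 44227 for COL6A3, and the groups covered nearly the same range. The basement membrane collagens gave no difference beyond the spread either: COL4A2 had medians of 18177, 22273 and 21831 and a log2 difference of 0.13 ± 0.12, and COL4A5 and COL4A6 had -0.05 ± 0.30 and -0.22 ± 0.30. In females alone the log2 differences of COL6A1, COL6A2 and COL6A3 were -0.16, -0.32 and -0.17, and in males alone those of COL4A5 and COL4A6 were 0.39 and 0.02, against the sign of the fit of all pigs. The lowest COL6A1 counts belonged to obese females 1 and 2, at 6628 and 6018. The other obese females lay from 12961 to 15777, against a lean female median of 10304. The highest lean count, 25820, belonged to lean pig 1, a female.

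The collagens that sit on fibril surfaces (FACIT collagens) divided. COL12A1 ranged from 1686 to 5386 with a median of 3106 in lean pigs, from 1388 to 3643 with a median of 2623 in intermediate pigs and from 849.8 to 4062 with a median of 2482 in obese pigs, with 10 of 12 obese pigs below the lean median and a log2 difference of -0.41 ± 0.17 (adjusted p = 0.251). COL14A1 had the opposite sign, with medians of 6899, 9395 and 11976, 10 of 12 obese pigs above the lean median and a log2 difference of 0.53 ± 0.28 (adjusted p = 0.386). COL21A1, at low counts with medians of 55.9, 79.95 and 85.7, had 0.51 ± 0.39, and COL16A1 had -0.12.

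**Figure D3:**
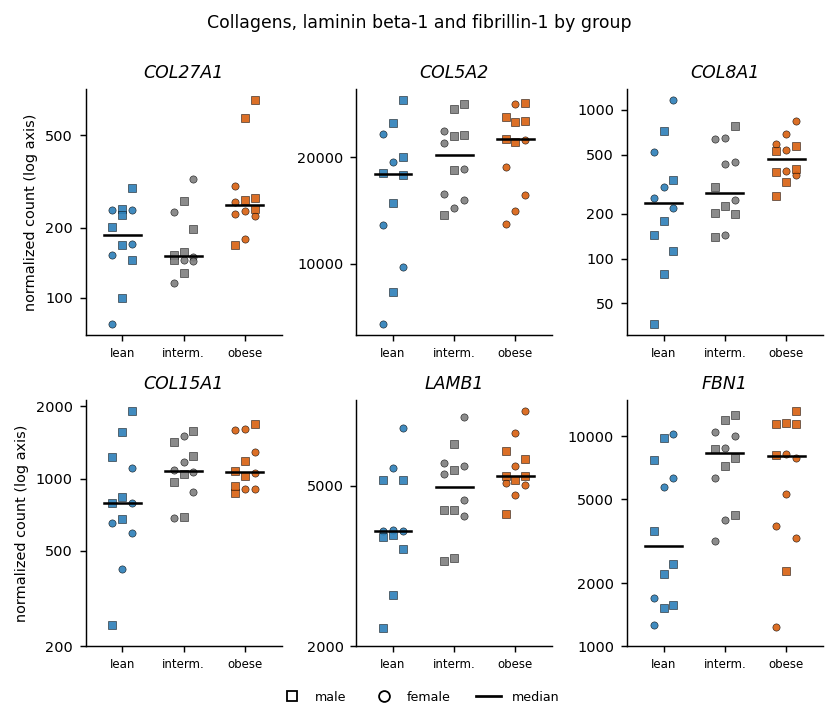
Normalized counts on a log axis for 4 collagens, LAMB1 and FBN1 in lean, intermediate and obese pigs, with 1 point per pig, squares for males, circles for females and a line at the group median. The lean pigs spread over the widest range in COL8A1 and COL15A1, and the obese values lie in the upper part of that range.

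FBN1, the main fibrillin of elastic microfibrils and the precursor of the hormone asprosin, ranged from 1271 to 10266 with a median of 3004 in lean pigs, from 3177 to 12581 with a median of 8280.2 in intermediate pigs and from 1235 to 13152 with a median of 8001 in obese pigs. Intermediate and obese medians were both far above the lean median, and the lean and obese pigs covered much the same range. The log2 difference was 0.80 ± 0.38 for obese minus lean (adjusted p = 0.317) and 1.10 ± 0.38 for intermediate minus lean (adjusted p = 0.267). Obese minus lean, FBN1 was 1.42 in males and 0.07 in females on the log2 scale. FBN2, the fibrillin of developing tissue, was at low counts, with medians of 31.6, 20.1 and 22.2 and a log2 difference of -0.49 ± 0.29 for obese minus lean. FBLN1 and FBLN2, fibulins of basement membranes and elastic fibres, differed by -0.03 ± 0.18 and 0.26 ± 0.14, with obese medians of 2631 and 2308 against lean medians of 2544 and 1988.

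All 4 lysyl oxidases had values above 0 for the obese minus lean difference and none had an unadjusted p under 0.05. LOXL1, which acts on elastin, had medians of 315, 622 and 553 and a log2 difference of 0.53 ± 0.29. LOX, LOXL3 and LOXL4 had 0.03 ± 0.19, 0.34 ± 0.23 and 0.15 ± 0.32, and the median of LOX was 642 in lean and 727 in obese pigs.

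The intermediate pigs were compared with each end. These comparisons share their pigs with the first one, so their values are set side by side and are not independent of it. Between intermediate and lean pigs, 0 of 56 genes and 0% of all genes passed the adjusted threshold by limma, and 13 of 56 genes had an unadjusted p under 0.05, 6 higher and 7 lower in intermediate pigs (12.5% of all genes, 5.71% higher and 6.81% lower). Between obese and intermediate pigs the adjusted count was 0 of 56 and 0% of all genes, and 3 of 56 genes had an unadjusted p under 0.05, 2 higher and 1 lower in obese pigs (4.28% of all genes, 2.06% higher and 2.22% lower): COL27A1 at 0.69 ± 0.21, ITGAL at 0.43 ± 0.19 and ITGB8 at -0.59 ± 0.22 on the log2 scale. ITGB8, named after its values were seen, is a chain that activates TGF-beta, and its counts were low, with medians of 18.1, 27.8 and 16.3 in lean, intermediate and obese pigs.

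For several leading genes the intermediate pigs lay between the ends. ITGB2 differed by 0.81 ± 0.32 between intermediate and lean pigs and by 0.44 ± 0.32 between obese and intermediate pigs. LAMA3 differed by -0.51 ± 0.23 and -0.41 ± 0.23, and ITGB4 by -0.50 ± 0.19 and -0.19 ± 0.19. For ITGA2 nearly the whole difference lay between intermediate and lean pigs, at -0.46 ± 0.19, with -0.07 ± 0.18 between obese and intermediate. A test of any difference among the 3 groups gave an adjusted p under 0.05 for 0 of 56 genes (2 genes in all, 0.0163%) and an unadjusted p under 0.05 for 20 of 56 (12.6% of all genes).

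Males and females were compared across the groups, since both sexes were in each. Here 2 of the 56 genes passed the adjusted threshold, against 2.19% of all genes, and 19 of 56 had an unadjusted p under 0.05, 10 higher in males and 9 lower, against 18.3% of all genes (8.01% higher and 10.3% lower). Most collagens and the leukocyte integrins had opposite signs. Of 18 collagens, 14 had higher values in males, 8 of them with an unadjusted p under 0.05, and 4 had lower ones. All 6 leukocyte integrins had lower values in males, and 3 of them had an unadjusted p under 0.05. Of all genes, 47.7% had higher values in males. The median log2 difference, male minus female, was 0.35 for the collagens, -0.38 for the leukocyte integrins and -0.01 for all genes.

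COL1A2 was higher in males. It ranged from 32905 to 155016 with a median of 75581 in the 19 males and from 17599 to 94868 with a median of 33682 in the 17 females, and 18 of 19 males lay above the female median. The log2 difference was 0.97 ± 0.20, or 1.96-fold (95% confidence interval of the log2 difference 0.56 to 1.39, adjusted p = 0.00676). Within groups the log2 difference was 0.89 among lean, 0.58 among intermediate and 1.45 among obese pigs. By a two-sided exact permutation test in each group, adjusted over 6 such tests on COL1A2 and ITGAL, p was 0.0833, 0.112 and 0.0195. Both genes were chosen for their difference in the same pigs, so these tests are not independent of it. The obese males lay from 50467 to 142750.0 and the obese females from 17599 to 53729.5.

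ITGAL was lower in males. It ranged from 139.6 to 450.3 with a median of 289 in males and from 227 to 1349.5 with a median of 411 in females, with 17 of 19 males below the female median, a log2 difference of -0.69 ± 0.16 and an adjusted p of 0.0153. The difference was -0.33 among lean, -0.53 among intermediate and -1.19 among obese pigs (exact permutation tests of the same 6, adjusted p = 0.197, 0.0195 and 0.0216). In the fit of lean and obese pigs alone, the log2 difference of ITGAL was -0.77 with an adjusted p of 0.0916. The lymphocyte markers CD2, CD8A and NKG7 had lower values in males, with log2 differences of -1.07, -1.09 and -0.74 (adjusted p = 0.0563, 0.0667 and 0.0857), and all 6 macrophage markers had lower values in males too, with summed medians of 3499 in males and 5313 in females and none past the adjusted threshold. The part of these cells in the ITGAL values was not tested.

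The other collagens with an unadjusted p under 0.05 and higher values in males were COL5A1 by 0.48 ± 0.15, COL5A2 by 0.38 ± 0.14, COL6A1 by 0.38 ± 0.17, COL6A2 by 0.45 ± 0.17, COL6A3 by 0.36 ± 0.15, COL12A1 by 0.36 ± 0.14 and COL16A1 by 0.41 ± 0.12. The smallest adjusted p among these was 0.052, for COL16A1, which passed with the lowest 25% of genes removed, with each pig's median subtracted, with median-of-ratios size factors and with voom weights (adjusted p from 0.0399 to 0.0473). COL8A1 had a lower value in males, by -0.79 ± 0.29 (adjusted p = 0.138). COL5A1 had medians of 13680.3 in males and 8539.8 in females, and COL6A1 14977 and 11247. Outside the collagens, LAMC3 had a value of 1.10 ± 0.33 (adjusted p = 0.0662) and FBLN5 of -0.45 ± 0.14 (0.0826), named after their values were seen. Without lean pig 1, the female with the highest COL1A2 value, 94868, 8 of 56 genes passed between the sexes: COL1A2, COL5A1, COL5A2, COL6A2, COL16A1, LAMC3 and ITGB3 with higher values in males and ITGAL with a lower one. Without lean pig 5, COL16A1 and LAMC3 passed beside COL1A2 and ITGAL, and without intermediate pig 8, COL16A1 and FBLN5 did, 4 of 56 genes in each case. Over the 36 fits with 1 pig left out, COL16A1 passed in 8, FBLN5 in 4 and LAMC3 in 3. The whole set of 56 genes took a median of 3.02% of the reads in males and 2.33% in females.

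**Figure D4:**
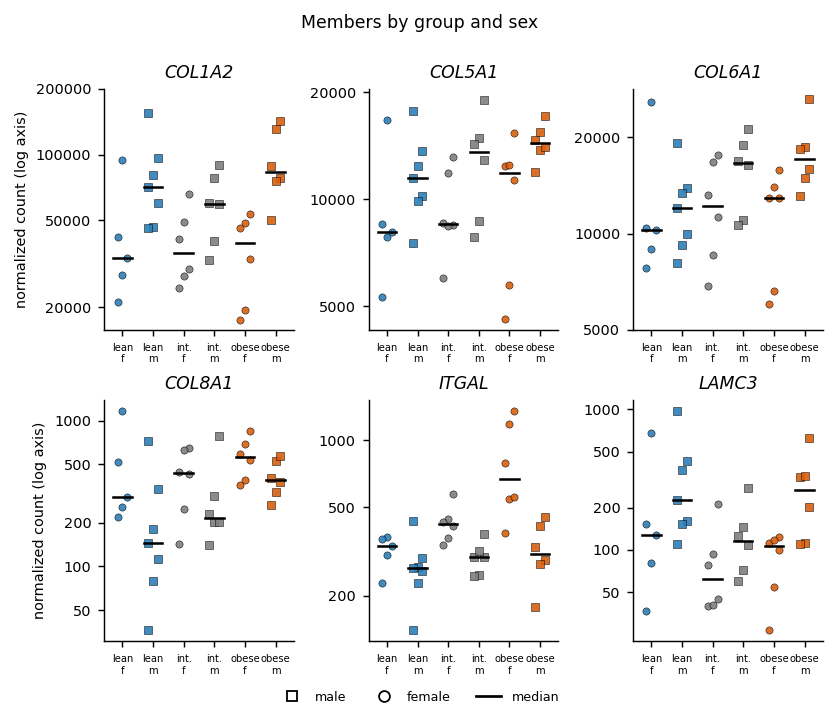
Normalized counts on a log axis for 6 genes by group and sex (f, female; m, male; int., intermediate), with 1 point per pig and a line at the median of each set. COL1A2 has a higher median in males than in females in each of the 3 groups, and ITGAL a lower one.

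Whether the obese minus lean difference itself differed between the sexes was tested as an interaction. By limma with BH adjustment, 0 of 56 genes passed (1 gene in all, 0.00816%), and the smallest adjusted p was 0.2. At an unadjusted p under 0.05 there were 13 of 56 genes, against 12.9% of all genes. ITGA8 (unadjusted p = 0.00211) differed between obese and lean pigs by 1.03 in males and -0.88 in females, ITGB7 by -0.34 and 1.21, COL16A1 by 0.24 and -0.54, and LOX by 0.47 and -0.50, all on the log2 scale. COL5A3 differed by 0.05 in males and 0.87 in females, and ITGAL (unadjusted p = 0.0269) by 0.29 and 1.15. Obese pigs 1 and 2, both female, had the lowest COL16A1 counts of all pigs (1374 and 1218) and the highest ITGB7 counts (321 and 394). Their ITGAL counts were the highest too, at 1176 and 1349.5. Females alone were not refitted without these pigs. Some genes whose interaction p was over 0.05 also had unequal values in the sexes, such as COL14A1 (0.97 in males and 0.02 in females), LOXL1 (0.90 and 0.10) and ITGA2 (-0.27 and -0.81). In the fit of females alone, COL5A3 passed the adjusted threshold at 0.87 (adjusted p = 0.0341), the only 1 of the 56 genes that did so there. The interaction of none of these genes passed the adjusted threshold.

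Pairs of genes, most of them chains of 1 protein, were compared for their variation across pigs. In 17 pairs, 14 set from known assemblies and 3 added after values were seen (LAMA3 with LAMB3, COL4A5 with COL4A6 and ITGA1 with ITGA2), Pearson's r over the 36 pigs was computed with Spearman's rho and permutation tests (100000 resamples, two-sided, BH over the 17 pairs), and 13 pairs passed by r and 12 by rho. Of the added pairs, ITGA1 with ITGA2 joins alpha chains that form no receptor with each other. That pair and COL4A5 with COL4A6 were added as neighbouring genes. Whether COL6A1 and COL6A2 are neighbours was not determined here. The points are pigs that also differ in group and sex, so r was repeated on residuals after group and sex. COL6A1 and COL6A2 had an r of 0.970 and a rho of 0.967, and each was the best correlated of all 12252 other genes to the other. COL6A3 had an r of 0.916 with COL6A1 and 0.902 with COL6A2, and rho was 0.887 and 0.872. The adjusted p of these 3 pairs was 2.4e-05 for r and for rho. On residuals the values of r were 0.978, 0.908 and 0.891, without the 2 pigs farthest from the median of the first gene they were 0.963, 0.895 and 0.871, and within every group and sex they lay between 0.841 and 0.992.

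COL5A1 and COL5A2 had an r of 0.798 (rho 0.895, adjusted permutation p = 2.4e-05 for both), 0.771 on residuals and 0.798 without the 2 farthest pigs, and within groups and sexes r lay between 0.691 and 0.886. ITGAM and ITGB2 had an r of 0.813 (rho 0.853, adjusted permutation p = 2.4e-05 for both), 0.791 on residuals and 0.823 without the 2 farthest pigs, with values between 0.678 and 0.862 within groups and sexes. ITGAL and ITGB2 had 0.697 (rho 0.792, adjusted permutation p = 2.4e-05 for both), 0.530 on residuals and 0.732 without the 2 farthest pigs, with values between 0.597 and 0.768 within groups and sexes. COL4A5 and COL4A6, which are neighbours in the Sscrofa11.1 annotation of RefSeq, had 0.729 (rho 0.724, adjusted permutation p = 2.4e-05 for both), 0.753 on residuals and 0.693 without the 2 farthest pigs, with values between 0.534 and 0.810 within groups and sexes.

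Pairs of the epithelial laminin and its receptor were looser. LAMA3 and LAMB3 had an r of 0.568 (rho 0.493, adjusted permutation p = 0.000765 and 0.00425), which was 0.437 on residuals and 0.109, 0.396 and 0.634 within lean, intermediate and obese pigs. ITGA6 and ITGB4 had an r of 0.536 (rho 0.531, adjusted permutation p = 0.00141 and 0.00191) and 0.397 on residuals, with 0.489, 0.096 and 0.681 in lean, intermediate and obese pigs. ITGA4 had an r of 0.528 with ITGB1 and 0.505 with ITGB7 (rho 0.528 and 0.403, adjusted permutation p of r = 0.00141 and 0.00275). The pair with ITGB7 was uneven, at -0.226, 0.814 and 0.823 in lean, intermediate and obese pigs and at 0.175 in males and 0.771 in females. LAMB1 with LAMC1 and ITGA1 with ITGB1 passed by r at 0.429 and 0.414 (adjusted permutation p = 0.0132 and 0.0163), and by rho, at 0.420 and 0.330, the first passed and the second did not (adjusted permutation p = 0.0184 and 0.0663). On residuals r was 0.468 and 0.456 (adjusted permutation p = 0.0067 and 0.00807). Neither pair passed without the 2 farthest pigs of the first gene, where r was 0.337 and 0.310 with adjusted permutation p-values of 0.068 and 0.0888. LAMA4 with LAMC1, ITGAV with ITGB1, ITGA5 with ITGB1 and ITGA1 with ITGA2 did not pass.

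Over all pairs of genes within a class, with group and sex means removed, the median r was 0.501 for the FACIT collagens and 0.454 for the leukocyte integrins, and it was 0.583 between the FACIT collagens and the class that holds type VI collagen. For the laminins it was 0.059 and for pairs of all genes 0.044. A single laminin could still vary with collagens, as LAMB2 had an r of 0.855 with COL6A1. These values describe pairs that share the same 36 libraries and carry no test.

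**Figure D5:**
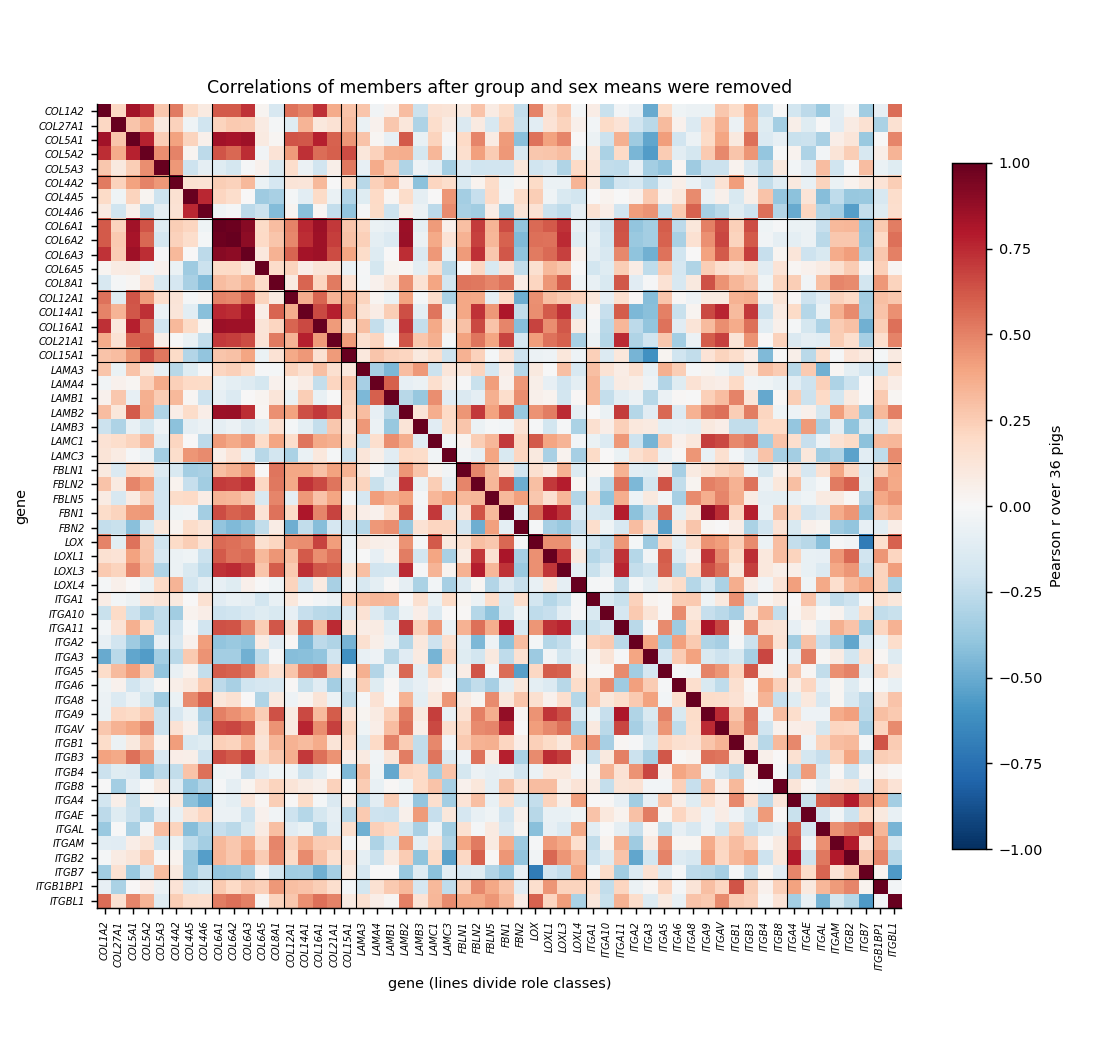
Pearson's r between the 56 genes over the 36 pigs after group and sex means were removed, from -1 in blue to 1 in red, with lines between the classes. The red block holds COL6A1, COL6A2 and COL6A3 with COL1A2, COL5A1, COL5A2 and the FACIT collagens, but not COL5A3 or COL27A1, and a smaller red block at the lower right holds the leukocyte integrins other than ITGAE. Genes outside the collagens also had a high r with COL6A1. Among them were LAMB2 (0.855), LOXL3 (0.725) and FBLN2 (0.698), against 0.616 for COL1A2.

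Other genes of matrix assembly and its receptors were taken from a list of 90 genes, of which 66 were matched. Between obese and lean pigs, 43 of the 66 had higher and 23 lower values, while 47.5% of all genes had higher ones. By limma 0 passed the adjusted threshold (0.0408% of all genes), and 12 higher and 3 lower genes had an unadjusted p under 0.05 (6.81% and 7.88% of all genes). SPARC, a collagen-binding protein of basement membranes, had medians of 14402, 16424 and 20568 in lean, intermediate and obese pigs and a log2 difference of 0.60 ± 0.17 (adjusted p = 0.09), and HSPG2, the basement membrane proteoglycan perlecan, differed by 0.34 ± 0.11 (0.128). All 5 basement membrane partners on the list had higher values in obese pigs. Of the elastic fibre partners, ELN, which encodes elastin, had medians of 2248, 7099 and 7401 and a log2 difference of 1.37 ± 0.46 (0.134), LTBP2, which binds fibrillin, 1.25 ± 0.37 (0.104), and EMILIN2 0.57 ± 0.24 (0.233). FN1, the gene of fibronectin, had medians of 15084, 48888 and 52891 and a log2 difference of 0.80 ± 0.39 (0.334). The collagen-modifying enzymes PLOD2, PLOD3 and P4HA1 differed by 0.45 ± 0.15, 0.35 ± 0.12 and 0.40 ± 0.17, and the propeptide proteinases BMP1 and ADAMTS2 by 0.27 ± 0.11 and 0.40 ± 0.18. FERMT3, the integrin activator of blood cells, differed by 0.78 ± 0.24 (0.106). Lower values in obese pigs were found for the proteinases MMP11 by -0.43 ± 0.11 (0.074) and MMP2 by -0.40 ± 0.18 (0.294) and for the prolyl hydroxylase P3H2 by -0.30 ± 0.12 (0.236).

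Between the sexes 6 of the 66 genes passed, against 2.19% of all genes. Of these, 5 rose in males. The list was written to hold genes of matrix assembly and its receptors. Its sublists include collagen synthesis and folding, propeptide processing and small proteoglycans, from which these 5 came. P4HA3 and P3H3 hydroxylate the prolines of collagen (log2 differences 1.23 ± 0.34 and 0.50 ± 0.12, adjusted p = 0.0457 and 0.0264), and FKBP10 is a collagen chaperone (0.68 ± 0.17, adjusted p = 0.0285). PCOLCE enhances the removal of the propeptide (0.62 ± 0.14, adjusted p = 0.0113), and DCN encodes decorin, which binds fibrils (0.62 ± 0.15, adjusted p = 0.0222). TLN1, the talin that links integrins to actin, fell in males by 0.36 on the log2 scale (adjusted p = 0.0243). Of the marker lists, LIPE, the hormone-sensitive lipase of adipocytes, was the only gene that passed between the sexes, with a log2 difference of -0.55 ± 0.11 (adjusted p = 0.00534). The 4 adipocyte markers summed to medians of 43130 in males and 52144 in females, and 4 of 4 had lower values in males. The 4 fibroblast markers summed to medians of 5577 in males and 6206 in females, and 2 of 4 had higher values in males. The part of cell composition in the collagen difference between the sexes was not tested.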

How the data were processed

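RNA-Seq of subcutaneous adipose tissue of 36 pigs was analysed from 1 table of 12253 genes. Per the study's methods and the submitters' processing notes, the authors aligned reads with STAR (genome build Sscrofa10.2), obtained read counts from HTSeq, dropped genes at low counts and applied size factors from DESeq and voom from limma. Deposited values are therefore log2 values, and each equals the log2 of a read count plus 0.5, divided by its size factor plus 1 and multiplied by a constant. Whole reads were recovered from them (100% of values up to 3000 reads within 0.1 of a whole number), and the lowest counts were 6 or 7 reads. Since 1 was added to size factors near 1, part of the depth difference remained, and the median deposited value ranged from 26.61 to 26.93 over pigs. The study's methods state a correction for gender, but the values convert to whole reads and hold sex differences, so sex was kept as a term. Gene IDs were matched to symbols for 8320 genes, without coordinates or sequences, since the reference tables used another build. Genes that share reads with close copies or overlap other genes could not be told apart, and whether counting used strand is not given in the sources used here.

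Genes were tested with limma 3.58.1 in R 4.3.3 using every pig, terms for group and for sex, an intensity trend and Benjamini-Hochberg adjustment over all 12253 genes at 0.05. The script was checked on simulated data. Correlations and exact tests used Python 3.11.15 with scipy 1.17.1 and numpy 2.4.6. The genes, classes and lists were chosen with earlier results of these data known. Named were genes past the threshold, the 3 with the smallest p for obese minus lean in each class, a fixed list of well-known members, and, from the other lists, genes past the threshold and up to 3 per sublist by smallest p. Alternatives were a fit without sex, lean and obese pigs alone, no trend, a filter on the lowest 25% of genes, values centred on the median of their pig, median-of-ratios size factors and voom weights on whole reads, each sex alone and each pig left out. A further 3 pairs of genes were chosen after seeing the data. 1 collagen gene and 1 laminin gene are not reported here.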

Additional observations from a re-analysis of the deposited data

How the results depend on the processing

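Depth limits the values of genes with few reads (COL4A5, COL21A1, FBN2, ITGB8, LAMB3), and lanes, sibs and ages were not known per pig. No paired analysis was possible because the pig numbers only name pigs within a group. Between obese and lean pigs the count of matrix and integrin genes past the adjusted threshold was 0 in the fit of all pigs and under every alternative except females alone, with 1, and single pigs left out, from 0 to 6. The count over all genes, 5 with all pigs, was 3 without sex as a term, 17 with lean and obese pigs alone, 12 without the trend, 1 after removal of the lowest 25% of genes, 9 with each pig's median subtracted, 9 with median-of-ratios size factors, 15 with voom weights, 2 in males alone, 21 in females alone, and from 1 to 292 with 1 pig left out. At an unadjusted p under 0.05, 6 of the 56 genes had higher values in females alone and 3 lower values in males alone, against 11 and 6 with all pigs. Subtracting each pig's median, median-of-ratios size factors and voom weights moved no log2 difference of a named matrix or integrin gene to the other side of 0.

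Between the sexes the count was 2 with all pigs, 1 with lean and obese pigs alone (ITGAL at -0.77 no longer passed), 3 with the lowest 25% of genes removed, each pig's median subtracted, median-of-ratios size factors or voom weights (COL16A1 passed in addition), and from 2 to 8 with 1 pig left out. COL1A2 lay between 0.91 and 1.17 over the 43 settings, with adjusted p up to 0.0221, and ITGAL between -0.77 and -0.61, with adjusted p up to 0.0916.

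Signs of obese minus lean log2 differences were followed for the genes named by the rule above, and turned for genes that had none past the threshold. In females alone COL1A2 was at -0.25, COL6A1 at -0.16, COL6A2 at -0.32, COL6A3 at -0.17, ITGA5 at -0.26, ITGAV at -0.061, ITGB1 at -0.12, ITGB1BP1 at -0.043, LAMC1 at -0.29, LOX at -0.50 and LOXL3 at -0.00058. In males alone COL4A5 was at 0.39, COL4A6 at 0.015, FBLN1 at 0.090, ITGA1 at 0.18 and ITGBL1 at 0.21, and without sex as a term COL1A2 was at -0.046. With 1 pig left out the ranges of these named genes that crossed 0 were -0.055 to 0.18 for COL1A2, -0.14 to 0.16 for COL4A5, -0.0052 to 0.22 for COL6A2, -0.089 to 0.024 for FBLN1, -0.015 to 0.12 for LAMC1, -0.054 to 0.16 for LOX and -0.11 to 0.25 for LOXL4. Obese pigs 1 and 2, both female, had the lowest COL1A2 and COL6A1 counts of all pigs. The cause of these changes of sign was not tested. Without the 2 farthest pigs r was -0.0034 for LAMA4 with LAMC1 and 0.384 for ITGAV with ITGB1, which then passed (adjusted permutation p = 0.035).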
